A study of Mus musculus with 6 samples.

Results

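Scx, Tnmd, Kera, Thbs2, Thbs4, Tcf21 and Tcf4 are 7 genes grouped here as regulators and matrix genes of tendon and of the connective tissue around muscle. They were taken by symbol from the authors' deposited tables, and 7 of 7 are among the 24421 rows. Tendons join muscle to skeleton. Their progenitors express Scleraxis, the product of Scx, a basic helix-loop-helix (bHLH) transcription factor that acts as a dimer with E proteins. In the head these progenitors, like the fibroblasts of muscle connective tissue, come largely from the cranial neural crest, while the muscle fibres come from mesoderm. The name Tcf4 has more than a single use. The factor called TCF4 in work on muscle connective tissue is the product of Tcf7l2, an HMG-box factor of Wnt signalling, whereas the symbol Tcf4 denotes an E protein, a bHLH factor that is expressed in many tissues. Values of Tcf7l2 are therefore given beside those of Tcf4.

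RNA was sequenced from anterior palatal mesenchyme of C57BL/6 background mouse embryos at E12.5. The protease Dispase II had been used to take off the epithelium. There were 3 libraries of Wnt1Cre;Meis2f/f embryos, called mutant here, and 3 of wildtype (WT) embryos. In the mutant, a Cre recombinase driven by Wnt1 sequences, active in the neural crest, acts on floxed alleles of Meis2, which encodes a TALE homeodomain factor. No library with Cre alone was analysed here, so an effect of the transgene cannot be told apart from that of the deletion. The labels call the samples biological replicates and do not say how many embryos each holds.

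The authors deposited comparisons made with DESeq2, without values per library. One table rests on 6 libraries and another on 4 of the same 6. The base mean of a gene averages its reads over libraries, after division by a size factor that scales each library for depth. Whole reads per library were therefore solved for, at base means up to 1700, where both base means allowed a single solution. Libraries are called A, B and C within a genotype, from the highest to the lowest size factor, and these letters are not the replicate numbers of the labels. Size factors ran from 0.775 to 1.44. Mutant B and WT B are the libraries missing from the smaller table.

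Meis2 had 1250, 1378 and 1218 normalised reads in mutant libraries A, B and C, against 1526, 1549 and 1695 in WT libraries A, B and C. All 3 mutant values lay below all 3 WT values. The log2 fold change of Meis2 was -0.28 with 6 libraries, not called (adjusted p 0.0743), and -0.33 with 4, called (adjusted p 0.0213, DESeq2 Wald test, the authors' deposited table). This gene fixed which way the tables' fold changes were read, so it gives no independent check of the labels, and each direction here rests on it. Markers of palatal mesenchyme were present, with base means of 16535 for the receptor gene Pdgfra and 10660 for the homeobox gene Prrx1 per the authors' deposited table. Summed over 19 muscle markers, normalised reads were 2359, 3125 and 7923 in mutant libraries A, B and C, against 994, 1512 and 1249 in WT libraries A, B and C. The largest term of this sum in each library was the myosin gene Myh3. It had 967, 1424 and 3555 normalised reads in mutant A, B and C, against 326, 664 and 559 in WT A, B and C. Mutant C stood apart by its muscle genes. Ckm, a creatine kinase of mature muscle fibres, had 84.4 normalised reads in mutant C, 0 in mutant A and B, and at most 1.18 in WT.

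None of the 7 genes passed an adjusted p under 0.05 over all genes (DESeq2 Wald test, the authors' deposited table), with 0 higher and 0 lower in the mutant. Of all 14942 genes tested, 2.9% were called, 1.75% higher and 1.16% lower. At an unadjusted p under 0.05, which 7.68% of all genes met, 1 of the 7 was higher, Tcf4, and 1 was lower, Thbs2. Of the 7, 6 had a base mean of at least 10 and are called measured, and 6 had an adjusted p. Their median log2 fold change was 0.03, against -0.01 over 14580 measured genes, per the authors' deposited table. With 4 libraries 0 of the 7 were called, against 2.3% of all genes, 1.31% higher and 0.99% lower, per the authors' deposited table. Tcf4 alone had an unadjusted p under 0.05 there, at 0.0198 per the authors' deposited table, against 6.72% of all genes.

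Per kilobase of exon (GENCODE M21, GRCm38), Tcf4 had the highest level of the 7, with a base mean of 237 per kilobase, although its exons, joined over all isoforms, span 27382 bases and no single transcript is that long. Thbs2 and Scx followed, with medians over the 6 libraries of 91.6 and 100 normalised reads per kilobase. Their ranges, 85.2 to 129 for Thbs2 and 73.1 to 109 for Scx, overlapped. Thbs4 (11.4 to 25.3), Kera (median 17.8) and Tnmd (6.33 to 16.5) formed a lower tier, in normalised reads per kilobase, in which the ranges of neighbours overlapped. Tcf21 was lowest, at 0.504 to 1.56 normalised reads per kilobase. In bulk tissue, fewer cells of a type and less RNA per cell cannot be told apart.

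Scx, the earliest marker of tendon progenitors, was readily detected and had close levels in both genotypes. The gene lies on chromosome 15, 76457452 to 76459458 on the plus strand (GRCm38), within an intron of Bop1, a ribosome biogenesis gene on the minus strand. The libraries gave 312, 156 and 179 reads in mutant A, B and C, against 259, 136 and 151 in WT A, B and C. Normalised, these were 217, 147 and 219 in the mutant libraries, against 207, 161 and 195 in the WT libraries. Both B libraries lay below the other 4, and the genotypes overlapped. The log2 fold change of Scx was 0.03 (SE 0.136, 95% interval -0.23 to 0.30) with an adjusted p of 0.969 (DESeq2 Wald test, the authors' deposited table). Among 2314 genes with a base mean within 1.5 times that of Scx, 83.3% lay further from 0.

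The split between the B libraries and the rest crossed genotypes. Without them the mean of Scx was 218 normalised reads in mutant A and C, against 201 in WT A and C, and within B it was 147 in the mutant, against 161 in WT. The direction was therefore opposite in the 2 sets of libraries, at log2 ratios of 0.12 and -0.13. The B set holds a single library of each genotype, so its direction is not replicated. Egr1 and Egr2, immediate early factors that also act in tendon differentiation, were low in the same libraries. Egr1 had 520 normalised reads in mutant B and 464 in WT B, against 979 to 1486 in the other 4 libraries. Egr2 had 42.3 in mutant B and 46.1 in WT B, against 81.5 to 141 in the other 4. Low values in both B libraries were not particular to tendon regulators. Id1, of the bHLH inhibitors, had 348 and 602 in mutant B and WT B, against 613 to 834 in the other 4. Id3 (1032 and 1283, against 1482 to 1578) and Twist2 (114 and 108, against 125 to 158) did likewise. Mkx did not, at 581 and 814, against 586 to 942. Whether the low Scx of the B libraries is tied to any of these genes was not tested. The tables do not say what sets these libraries apart. Exons of Scx and Bop1 share 0 bases in GENCODE M21, but reads of unspliced Bop1 RNA could be counted to Scx if counting ignored strand. Bop1 itself was not called (log2 fold change -0.13, adjusted p 0.783, DESeq2 Wald test, the authors' deposited table).

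Tcf21, a bHLH factor of branchial arch muscle precursors and of mesenchyme in the heart, kidney and lung, was barely detected. It lies on chromosome 10, 22817281 to 22820174, and an antisense gene, Gm10824, spans it without sharing exon bases. Mutant A, B and C held 2, 3 and 3 reads, and WT A, B and C held 2, 1 and 1, a total of 12 reads. A difference of genotypes was not detectable at this depth, and no ratio of these reads is given. For Tcf21 the moderated log2 fold change, drawn toward 0 at so few reads, was 0.04 (SE 0.065) per the authors' deposited table, with an unadjusted p of 0.512 and no adjusted p.

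Tnmd and Kera mark differentiating tendon cells downstream of the progenitor stage, and both were weakly expressed. Tnmd encodes tenomodulin, a membrane glycoprotein that is a late tendon marker (chromosome X, 133850980 to 133865577). It had 32, 13 and 7 reads in mutant A, B and C, against 19, 13 and 15 in WT A, B and C. Normalised, the mutant libraries had 22.3, 12.2 and 8.56 and the WT libraries 15.2, 15.4 and 19.4. The mutant libraries spread on both sides of the WT range, so that mutant A was the highest and mutant C, the library with the most muscle RNA, the lowest of the 6. The log2 fold change of Tnmd was -0.04 (SE 0.131) with an adjusted p of 0.959 (DESeq2 Wald test, the authors' deposited table).

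Kera encodes keratocan, a small leucine-rich proteoglycan of cornea and tendon (chromosome 10, 97606879 to 97613692). Its normalised reads were 43.8, 44.2 and 34.2 in mutant A, B and C, against 45.5, 34.3 and 37.4 in WT A, B and C, from 253 reads in all. The values of the genotypes covered nearly the same range. The log2 fold change of Kera was 0.03 (SE 0.150, 95% interval -0.27 to 0.32, adjusted p 0.975, DESeq2 Wald test) per the authors' deposited table, and -0.02 with 4 libraries. The smallest absolute log2 fold change called among 1430 genes of like base mean was 0.47, and among 1278 genes like Tnmd it was 0.44. No gene of like base mean with a smaller change was called.

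**Figure D1:**
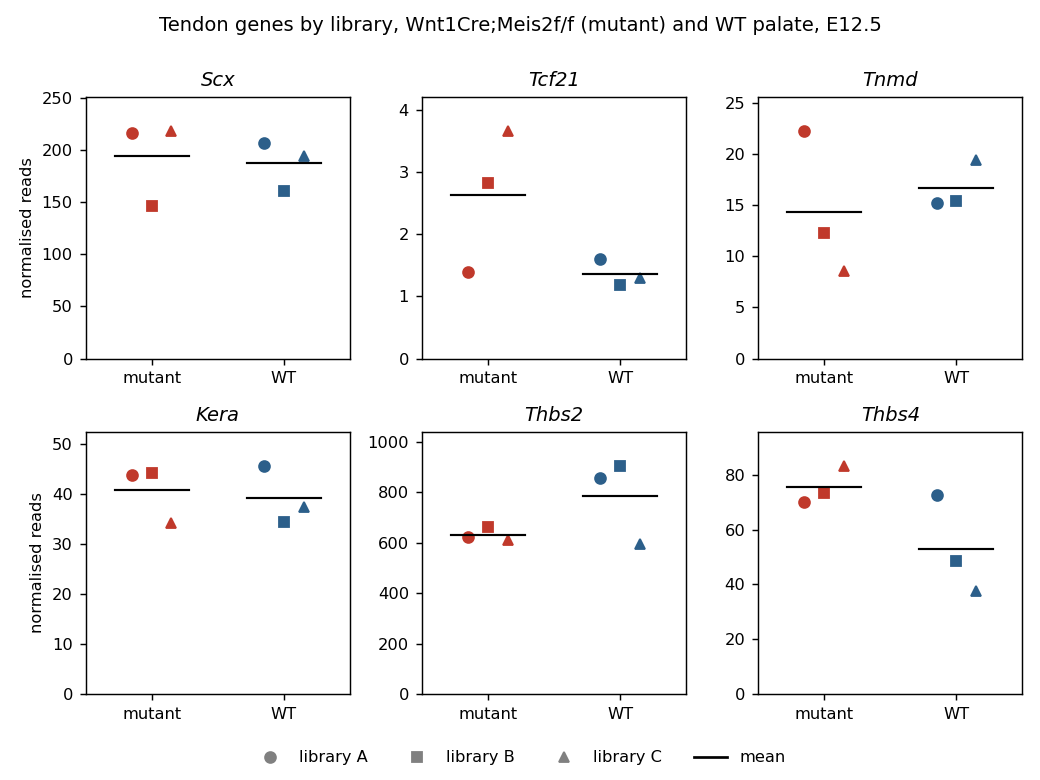
Normalised reads (reads divided by the size factor of the library, y axes from 0) of 6 of the 7 genes in each library, mutant left and WT right; circles, squares and triangles are libraries A, B and C, and bars are means of 3 libraries. Mutant and WT libraries overlap in each panel, Scx is lowest in the 2 B libraries, and the 3 mutant values of Thbs4, 70.3 to 83.2, lie above 2 of the 3 WT values.

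The thrombospondin genes Thbs2 and Thbs4 differed in direction, without a call for either. Thrombospondins are secreted glycoproteins that bind matrix and cells. Thbs2 belongs to the trimeric and Thbs4 to the pentameric kind, and Thbs4 is found at the junction of muscle and tendon. Thbs2 (chromosome 17, 14665500 to 14694235) had 621, 662 and 611 normalised reads in mutant A, B and C, against 857, 904 and 596.5 in WT A, B and C. WT A and WT B lay above all 3 mutant libraries and WT C below them. Thbs2 had a log2 fold change of -0.26 (SE 0.119, 95% interval -0.49 to -0.02), with an unadjusted p of 0.0318 and an adjusted p of 0.390 (DESeq2 Wald test, the authors' deposited table). With 4 libraries it was -0.18 with an adjusted p of 0.825 per the authors' deposited table. The log2 ratio of mean normalised reads was -0.32, and it was -0.20 without WT B and -0.48 without WT C. Of 2857 genes with like base means, 6.65% lay further from 0 than Thbs2.

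Thbs4 (chromosome 13, 92751590 to 92794818) had 70.3, 73.4 and 83.2 normalised reads in mutant A, B and C, against 72.7, 48.5 and 37.4 in WT A, B and C. The mutant libraries were close together, and WT A alone reached their range. Thbs4 had a log2 fold change of 0.26 (SE 0.150, 95% interval -0.03 to 0.55) with an adjusted p of 0.585 (DESeq2 Wald test, the authors' deposited table). The fold changes of the tables are moderated, that is drawn toward 0, and the ratio of the mean normalised reads, 75.6 in the mutant and 52.9 in WT, was 0.52 on the log2 scale. Leaving out 1 library at a time, this log2 ratio ran from 0.32 to 0.82, and it was 0.82 without WT A. Muscle markers moved in the same direction, with summed values of 2359 to 7923 in the mutant and 994 to 1512 in WT. Thbs4 was highest in mutant C, where muscle RNA was highest. In WT it was highest in library A, at 72.7, where the summed muscle markers were lowest, at 994. Single muscle markers differed in their order over WT A, B and C. Myog (139, 119 and 87.8) and Chrna1 (32.8, 26.0 and 21.9) were highest in A. Myh3 (326, 664 and 559) and Actc1 (161, 220 and 155) were highest in B. The part of muscle in the values of Thbs4 was not tested.

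Both called genes of the thrombospondin list were relatives of these. Thbs1, a trimeric thrombospondin that activates latent TGF-beta, fell by 0.42 (adjusted p 0.00168) and Thbs3, a pentameric one, rose by 0.35 (adjusted p 0.0379) on a log2 scale (DESeq2 Wald test, the authors' deposited table). Thbs3 had 1457, 1641 and 1333 normalised reads in mutant A, B and C, against 992, 1268 and 1092 in WT A, B and C, with no overlap. Both were also called with 4 libraries, Thbs1 at -0.41 and Thbs3 at 0.38, per the authors' deposited table. Comp, the cartilage and tendon thrombospondin, was under the base mean limit at 6.83 per the authors' deposited table. The receptor genes Cd47 and Cd36 had log2 fold changes of 0.0003 and 0.20 without a call per the authors' deposited table. Of the 4 measured genes of this list 1 rose and 1 fell, with a median of 0.10.

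Tcf4 was the most abundant of the 7, with a base mean of 6490 per the authors' deposited table (chromosome 18, 69343356 to 69689079). Its reads per library were not solved for, since its base mean lies over the limit of 1700 set for this step. The base mean and the fold change together imply levels of about 6919 normalised reads in the mutant and 6061 in WT. Since this fold change is moderated, the gap between the genotypes may be somewhat larger than these levels show. Tcf4 had a log2 fold change of 0.19 (SE 0.081, 95% interval 0.03 to 0.35), with an unadjusted p of 0.0185 and an adjusted p of 0.293 (DESeq2 Wald test, the authors' deposited table). With 4 libraries it was 0.18 with an adjusted p of 0.319 per the authors' deposited table. The mean of the 2 B libraries lay between 6354 and 6436 normalised reads, against 6517 to 6558 for the other 4, so that the B libraries were close to the rest for this gene.

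Tcf7l2, the muscle connective tissue gene with the similar name, had 684, 726 and 644 normalised reads in mutant A, B and C, against 545, 526 and 665 in WT A, B and C. WT C lay within the mutant range and the other WT libraries below it. Tcf7l2 had a log2 fold change of 0.21 (SE 0.107), with an unadjusted p of 0.0503 and an adjusted p of 0.477, and 0.12 with 4 libraries (DESeq2 Wald test, the authors' deposited table). Of the 4 measured TCF/LEF genes, 0 were called at an adjusted p under 0.05 (DESeq2 Wald test), and 0 at an unadjusted p under 0.05, per the authors' deposited table. Tcf7l1, a repressor of this family, had a log2 fold change of -0.16 per the authors' deposited table.

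**Figure D2:**
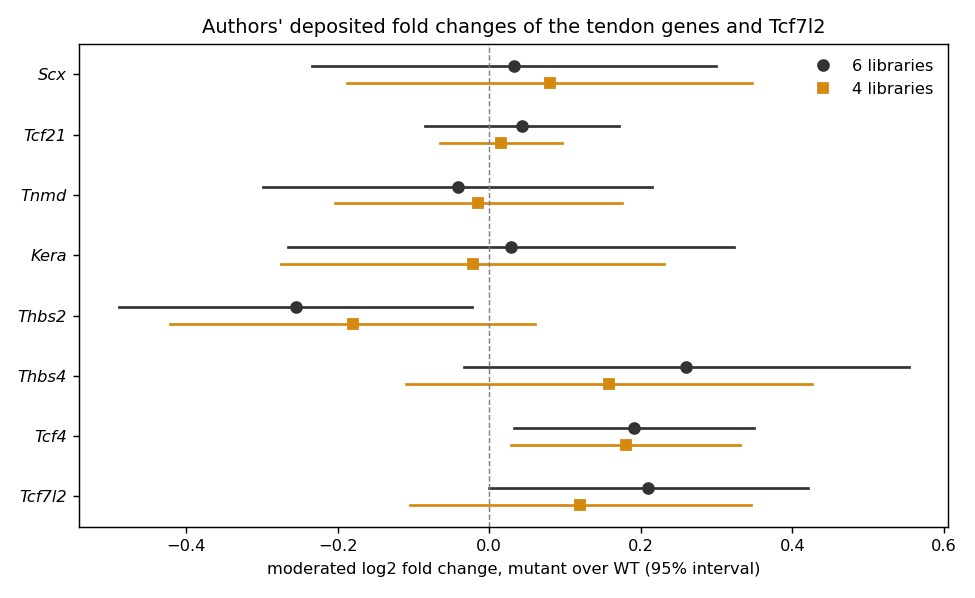
Moderated log2 fold changes, mutant over WT, of the 7 genes and Tcf7l2 from the authors' deposited tables of 6 libraries (black circles) and 4 libraries (orange squares), with 95% intervals from the deposited standard errors. Intervals of Scx, Tcf21, Tnmd and Kera are centred near 0; with 6 libraries those of Thbs2 (-0.49 to -0.02) and Tcf4 (0.03 to 0.35) leave out 0 before adjustment over all genes.

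Other tendon regulators behaved one by one. Of 8 measured genes 1 fell, 1 rose and 6 were not called, with a median log2 fold change of -0.03, per the authors' deposited table. Mkx, the Mohawk homeobox factor that promotes tendon differentiation and collagen synthesis, had a log2 fold change of -0.42 with SE 0.103 (adjusted p 0.00361, DESeq2 Wald test, the authors' deposited table), and kept its call with 4 libraries at -0.38. It had 586, 581 and 659 normalised reads in mutant A, B and C, against 942, 814 and 785 in WT A, B and C. The genotypes did not overlap. The log2 ratio was -0.48 within the B libraries, a single library of each genotype, and -0.47 in the others. Eya2, a transcriptional cofactor of the eyes absent family, rose by 0.91 (adjusted p 3.97e-08) on the log2 scale (DESeq2 Wald test, the authors' deposited table), with 136, 170 and 152 normalised reads in mutant A, B and C, against 47.9, 68.6 and 56.8 in WT A, B and C. Eya2 is also expressed in muscle precursors, and the muscle markers were higher in the same libraries. Among the mutants, Eya2 was highest in B and the summed muscle markers in C, while in WT both were highest in B. The part of muscle in the rise of Eya2 was not tested. Eya1, of the same family as Eya2, had a log2 fold change of -0.02 without a call per the authors' deposited table.

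Of 23 measured genes of tendon matrix, 1 rose, 1 fell and 21 were not called, with a median log2 fold change of -0.05, per the authors' deposited table. Cthrc1, a secreted protein of collagen-rich matrix, rose by 0.73 (adjusted p 7.24e-08), and Aspn, which encodes the proteoglycan asporin, fell by 0.80 (adjusted p 3.19e-08) on the log2 scale (DESeq2 Wald test, the authors' deposited table). Cthrc1 had 575, 596 and 556 normalised reads in mutant A, B and C, against 360, 311 and 252 in WT A, B and C. Aspn had 616, 669 and 604 in mutant A, B and C, against 1525, 1416 and 915 in WT A, B and C, and it was not called with 4 libraries, at -0.39 with an adjusted p of 0.152 per the authors' deposited table. The fibrillar collagen genes Col3a1 and Col5a2, the most abundant of the list that were not called, had log2 fold changes of -0.10 and 0.07 per the authors' deposited table.

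Among relatives of Kera, 0 of 9 measured small leucine-rich proteoglycan genes rose and 1, Aspn, fell, with a median log2 fold change of -0.10, per the authors' deposited table. Lum and Ogn, encoding lumican and osteoglycin, had log2 fold changes of -0.23 and -0.11 without a call per the authors' deposited table. Of 4 measured osteoblast markers 1 fell with 6 libraries, Runx2, and 0 with 4, per the authors' deposited table. Summed over all 6 listed osteoblast markers, normalised reads were 813 to 1239 in the mutant, against 1632 to 1686 in WT. Most of this sum was Runx2 itself, at 648 to 1000 in the mutant and 1312 to 1428 in WT. Aspn is also expressed in periosteal and perichondrial cells. The part of bone cells in its fall was not tested.

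Of 9 measured genes of muscle connective tissue, 2 fell, 1 rose and 6 were not called, with a median log2 fold change of 0.08, per the authors' deposited table. Hgf, the ligand that guides migrating muscle precursors, rose by 0.75 (adjusted p 2.22e-06) on the log2 scale (DESeq2 Wald test, the authors' deposited table). It had 257, 238 and 203 normalised reads in mutant A, B and C, against 104, 135 and 105 in WT A, B and C, with no overlap. Among the mutants Hgf was lowest in C, where muscle RNA was highest. Among WT libraries it was highest in B, where the summed muscle markers were also highest. The part of muscle in the values of Hgf was not tested. The T-box gene Tbx3 fell by 0.54 and the homeobox gene Prrx1 by 0.31 on the log2 scale per the authors' deposited table. Tbx3 had 1122, 1022 and 1124 normalised reads in mutant A, B and C, against 1624, 1450 and 1987 in WT A, B and C. Both are also genes of palatal mesenchyme at large. Pdgfra and the chemokine gene Cxcl12 were not called, at log2 fold changes of 0.20 and -0.08, per the authors' deposited table. With 4 libraries Pdgfra was called, at 0.23 with an adjusted p of 0.0473 per the authors' deposited table.

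Partners and inhibitors of the bHLH factors were measured for 10 of 10 genes, of which 2 fell, 0 rose and 8 were not called, with a median log2 fold change of -0.12, per the authors' deposited table. Id2, whose product binds E proteins and keeps them from DNA, fell by 0.59 (adjusted p 3.4e-05), and Twist1, a bHLH factor of cranial mesenchyme, by 0.45 (adjusted p 0.00859) on the log2 scale (DESeq2 Wald test, the authors' deposited table). Id2 had 595, 455 and 587 normalised reads in mutant A, B and C, against 936, 770 and 985 in WT A, B and C. The other E protein genes, Tcf12 and Tcf3, had log2 fold changes of 0.18 and -0.13, so that neither they nor Tcf4 was called per the authors' deposited table. TGF-beta and FGF signals induce tendon progenitors in limb and somite, and the 7 genes measured of that list were all of the TGF-beta pathway. Of these 7, 1 rose, Tgfb2, by 0.42 (adjusted p 0.0112, DESeq2 Wald test) on the log2 scale, and 0 fell, per the authors' deposited table. Tgfb2 had 597, 710 and 531 normalised reads in mutant A, B and C, against 399, 440 and 460 in WT A, B and C, and it was not called with 4 libraries (adjusted p 0.175) per the authors' deposited table. Tgfbr1 and Smad2, a receptor and a signal transducer of this pathway, were at 0.12 and 0.02, and the FGF ligand genes Fgf4 and Fgf8 had base means of 0 and 2.52, under the limit, per the authors' deposited table.

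**Figure D3:**
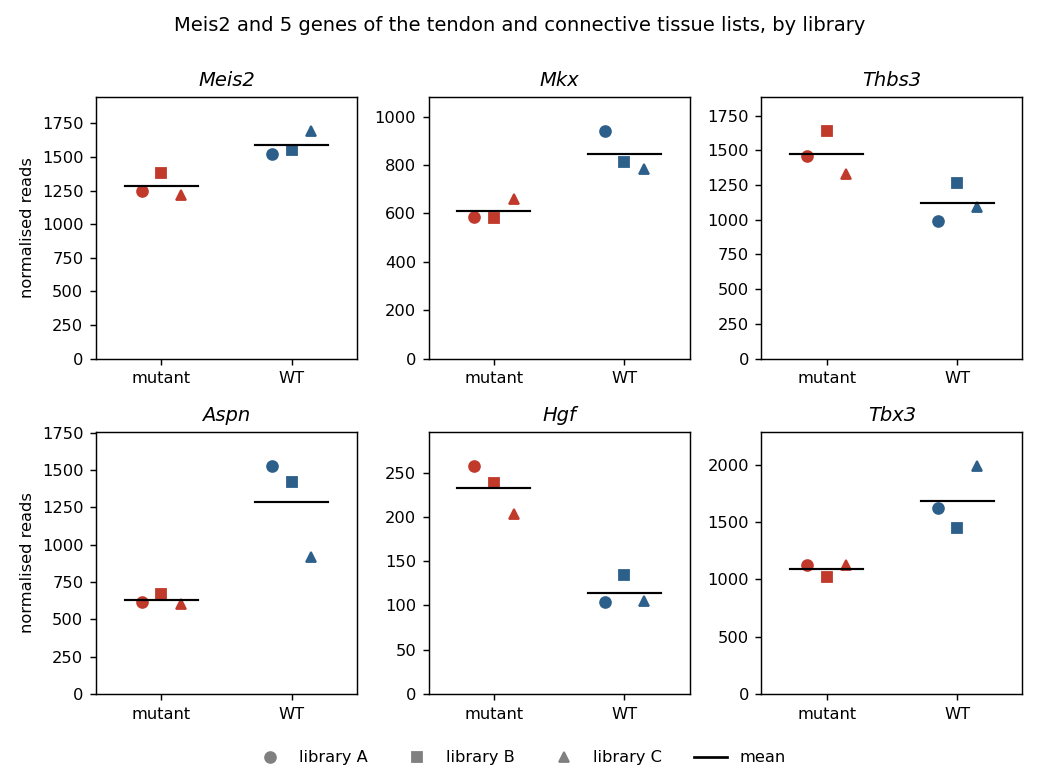
Normalised reads of Meis2, not called with 6 libraries, and of 5 called genes from the tendon and connective tissue lists in each library (y axes from 0), mutant left and WT right; circles, squares and triangles are libraries A, B and C, and bars are means of 3 libraries. In each panel the mutant and WT libraries are separate, Mkx at 581 to 659 in the mutant and 785 to 942 in WT. The 5 genes shown beside Meis2 were called ones, so their separation adds no support to the calls. Meis2 separates without a call, and how many of all genes separate was not counted.

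Markers of other cell types also differed between the genotypes, and their part in the values above was not tested. Of 19 measured muscle markers 11 rose and 0 fell, with a median log2 fold change of 0.49, per the authors' deposited table, and of 6 measured cartilage markers 0 rose and 2 fell, their median being -0.23. With 4 libraries 4 muscle markers rose and 3 cartilage markers fell per the authors' deposited table. Among muscle markers Myh3 and Myh8, myosins of developing fibres, were the most abundant that were not called, at 0.32 and 0.19 per the authors' deposited table. Of 7 neuron markers 4 fell (1 with 4 libraries) and of 7 macrophage markers 3 rose (2 with 4 libraries), and 0 of 5 Schwann cell and glial, 6 endothelial and 7 epithelial markers were called (DESeq2 Wald test, the authors' deposited table). At an unadjusted p under 0.05, 2, 0 and 0 of these were lower and 0, 0 and 0 higher. Summed epithelial markers held 1036 to 1404 normalised reads in the mutant, against 955 to 1438 in WT. Among the 8 palatal mesenchyme markers 1 rose, Pax9, and 3 fell, Shox2, Twist1 and Prrx1, per the authors' deposited table.

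**Figure D4:**
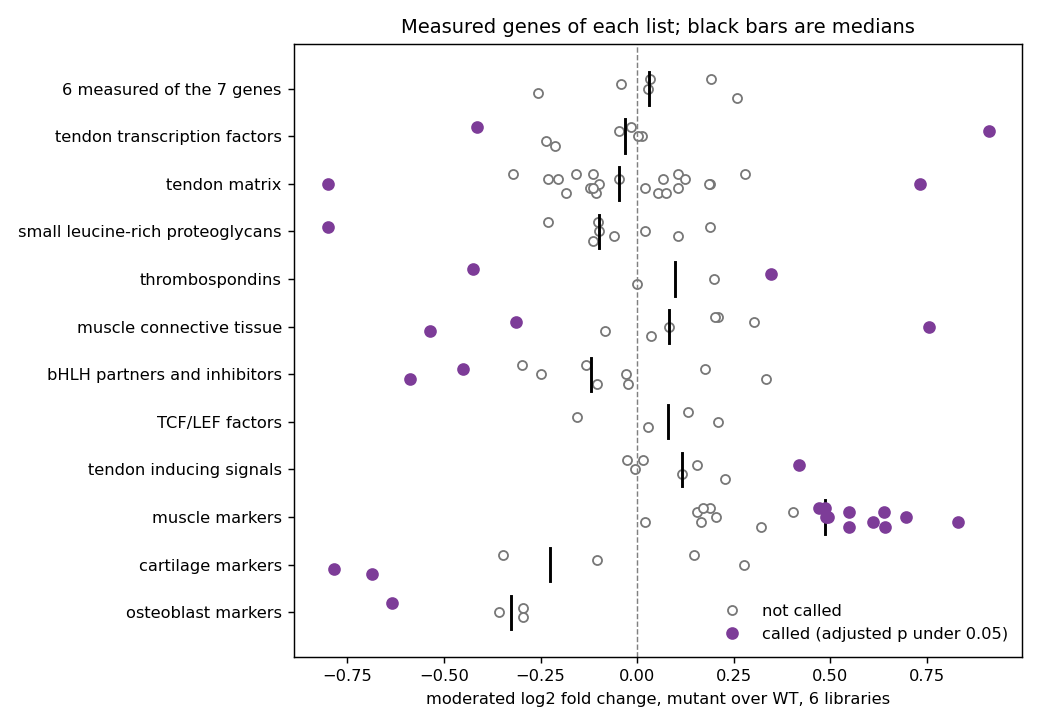
Moderated log2 fold changes, mutant over WT with 6 libraries, of measured genes (base mean at least 10) in each list, from the authors' deposited table; filled points were called at an adjusted p under 0.05 and black bars are medians. The 6 measured of the 7 genes lie between -0.26 and 0.26 with none called, and the muscle markers lie to the right, with a median of 0.49.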

How the data were processed

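Per the submitters' processing notes, the tools were HISAT2, featureCounts and DESeq2 and the builds GRCm38 and mm10. Versions, settings and whether counting used strand were not given in the sources used here. RNA was amplified before library preparation with a TruSeq RNA v2 kit, per the labels' protocols, and amplification can add noise to weakly expressed genes. The deposited tables give per gene a base mean, a signal that is never negative, a log2 fold change, its standard error, a Wald score, a p-value and a Benjamini-Hochberg adjusted p-value, from the authors' DESeq2 comparison. The members and lists were chosen with earlier results of these data known. The deposited tables hold no values per library, so the adjusted p of the 6-library table is the test, and no model was fitted. Another deposited table was not used here.

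The base mean of a gene that only 1 read reached depends on 1 size factor alone. Such genes gave 6 levels, 3 with fold changes above 0 and 3 below, and 4 of the levels recur in the second table. The sign was read as mutant over WT because Meis2 is lower that way. With these levels, whole reads per library were solved for from both base means, to their last deposited digit, for genes with base means up to 1700 and under 0.1 solutions expected by chance. The levels were refined on 1500 genes of few reads and then on the 1145 genes with base means of 20 to 40. On simulated counts of 6 libraries, 340 of 340 genes came out right. On the deposited tables, 324 of 325 genes with base means of 150 to 170, which were not used to refine the levels, had a single solution. Of these, 147 of 147 with an absolute deposited log2 fold change of at least 0.1 had recovered means of the same sign. The solution for reads does not use the sign of these genes, but the genotype of each level was read from the sign of single-read genes. The names of 27 rows read as dates, and those genes were not identified. Normalised reads are reads divided by size factors. The base means summed to 15317259 with 6 libraries and 16869001 with 4. The p-values test a difference between genotypes against the spread between these libraries only, and how many embryos each library holds is not known. With 3 libraries against 3, an exact permutation test cannot go below 0.10, so none was run on single genes.

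Named genes were the 7, Tcf7l2, the called genes of each list and the 2 most abundant that were not called. 1 gene that this rule names is not reported here. Alternatives were 4 libraries, other base mean limits, centring on the median gene and other thresholds. Chosen after the data were examined was the unmoderated ratio of recovered reads, leaving out each library in turn. Calculations used Python 3.11.15, pandas 2.3.3, numpy 2.4.6 and scipy 1.17.1.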

Additional observations from a re-analysis of the deposited data

How the results depend on the processing

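The counts of the 7 genes called higher and lower were 0 and 0 with 4 libraries, under each base mean limit, centred on the median gene and at thresholds of 0.01 and 0.1. Over these alternatives adjusted p ran from 0.219 to 1.00. Of the 7 genes, Kera alone changed direction with 4 libraries, to -0.022. The other limits and thresholds leave fold changes as they are. Leaving out 1 library each, the unmoderated log2 ratio ran from -0.05 to 0.22 for Scx, from -0.68 to 0.05 for Tnmd, from -0.03 to 0.18 for Kera and from -0.48 to -0.20 for Thbs2. For Scx it was below 0 without mutant A, mutant C or WT B, at -0.037, -0.044 and -0.049. For Tnmd it was 0.051 without mutant C, and for Kera -0.0023 without mutant B and -0.026 without WT B. With 4 libraries tendon matrix and proteoglycan genes that fell came to 0 each, muscle connective tissue genes that rose to 2, tendon inducing signals that rose to 0, muscle markers that rose to 4, osteoblast and neuron markers that fell to 0 and 1, palatal mesenchyme markers that rose to 2, cartilage markers that fell to 3 and macrophage markers that rose to 2. At a base mean of at least 100, muscle markers that rose came to 5, neuron markers that fell to 2 and macrophage markers that rose to 2, since fewer genes count as measured. The cause of the changes with 4 libraries was not tested. No paired analysis was possible because the tables carry no replicate numbers. Leaving out single replicates in the DESeq2 test was not run. Depth limits Tcf21, Tnmd and Kera.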
